A study of Mus musculus with 10 samples.

Results

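The 10 genes described here make, load, recycle, break down or sense acetylcholine, and they were taken by symbol from the deposited tables: Chat, Slc18a3, Slc5a7, Slc10a4, Ache, Prima1, Chrm2, Chrna4, Chrna7 and Chrnb2. All 10 were found among the 51912 genes of the count files. They were measured in motor neurons cut by laser from 12 µm sections of snap-frozen mouse lumbar spinal cord, as 1 pool of about 50 cells per mouse, in 5 HSA-NRTN mice and 5 wild-type littermates. Each group had 3 females and 2 males. The animal numbers in the labels fall into a lower and a higher run, and what a run stands for is not given. The lower run holds 3 HSA-NRTN mice and 1 wild-type mouse, so run and genotype are partly confounded. HSA-NRTN mice carry neurturin, a ligand of the GDNF family, under the promoter of human skeletal actin, which is active in muscle fibres. The sources used here do not give age or strain. Cells needed a nucleus with a visible nucleolus and an area above 200 µm2, which leaves small motor neurons out.

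Motor neurons release acetylcholine at the neuromuscular junction and at collaterals inside the cord. Choline is taken up from the synapse, joined to an acetyl group in the cytosol and pumped into vesicles, and after release the transmitter is split by acetylcholinesterase. Motor neurons also receive acetylcholine, chiefly at C-boutons, large synapses of cholinergic interneurons that face M2 muscarinic receptors. Nicotinic receptors are ion channels of 5 subunits, of which the α4 and β2 subunits combine with each other and α7 forms channels of its own.

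The label of the captured cells was checked against markers outside the 10 genes. All 7 motor neuron markers (Isl1, Isl2, Mnx1, Prph, Ret, Nefh and Calca) had counts in all 10 libraries, and their summed level ran from 4871 to 10889 CPM, a count scaled to library size with TMM factors. That sum was at 4871 to 7899 CPM in HSA-NRTN and 7923 to 10889 CPM in wild-type pools, so the groups nearly touched without overlap. Taken singly, 1 of the 7 genes did not overlap between the groups, which was true of 1.25% of all genes tested. The 7 genes did not share a direction, with 4 log2 fold changes above 0 and 3 below. Calca, the CGRP peptide gene, averaged 1138 against 3677 CPM (-1.69, SE 0.34, adjusted p = 0.142 in edgeR), and Ret, a receptor of GDNF family signals, averaged 852 against 420 CPM (1.02, SE 0.27, adjusted p = 0.403). Their part in the results below was not tested. Nos1, found in some cholinergic interneurons of the cord, lay between 0.283 and 16.3 CPM. The 4 skeletal muscle markers summed to at most 0.855 CPM in HSA-NRTN and 1.17 CPM in wild-type pools, with Myh4 and Des at 0. Depth ran from 1875971 to 6641695 gene counts per library and 14090 to 19675 genes were detected. Markers of other cells were high in single pools of both groups. The 3 fibroblast markers reached 56.4 CPM in HSA-NRTN pools, and 352 CPM in wild-type replicate 4 and 296 CPM in wild-type replicate 2. Glutamatergic markers reached 182 CPM in HSA-NRTN replicate 5 and 299.7 CPM in wild-type replicate 5, and inhibitory markers 161 CPM in HSA-NRTN replicate 2 and 172 CPM in wild-type replicate 1. A pair of libraries stood apart. HSA-NRTN replicate 2 had the lowest depth, 58.6% of its reads were not aligned, and its 5 oligodendrocyte markers summed to 1382 CPM against 193 to 598 CPM in the other 9 libraries. Wild-type replicate 1 had the fewest genes detected, and the highest shares of spike-in reads (4.86%) and of mitochondrial counts (12.9%). Without both, the log2 fold changes given below were 0.42 for Chat, 0.35 for Slc18a3, 0.51 for Slc5a7, -0.06 for Slc10a4, 0.52 for Ache, -0.84 for Prima1, -0.27 for Chrm2, 2.45 for Chrna4 and 0.52 for Chrnb2.

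Chat and Slc18a3 share a locus. Chat, choline acetyltransferase, lies on the minus strand of chromosome 14 of GRCm38 from 32408203 to 32465989, and the single exon of Slc18a3, the vesicular acetylcholine transporter, lies inside an intron of Chat from 32462438 to 32464850 on the same strand. Their annotated 5′ ends are 1139 bases apart and their exons share 0 bases, so reads within exons are assigned to 1 of the 2 genes. The sequences upstream of both start sites are shown because these 2 neighbours had log2 fold changes of like size, 0.38 and 0.43 (below). This was not particular to the locus, as Slc5a7 on chromosome 17 had 0.38. Control by these sequences was not tested. They are RefSeq promoters of GRCm38.p6 on the minus strand, at chr14:32465990-32466159 for Chat and chr14:32464851-32465041 for Slc18a3, without bases that lie in an annotated exon. Capitals mark the match to TGACG, the core of cyclic AMP response elements, searched on both strands.
Chat: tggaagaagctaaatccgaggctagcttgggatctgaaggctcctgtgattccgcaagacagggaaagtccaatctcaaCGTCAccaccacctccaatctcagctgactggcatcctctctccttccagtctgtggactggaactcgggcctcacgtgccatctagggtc
Slc18a3: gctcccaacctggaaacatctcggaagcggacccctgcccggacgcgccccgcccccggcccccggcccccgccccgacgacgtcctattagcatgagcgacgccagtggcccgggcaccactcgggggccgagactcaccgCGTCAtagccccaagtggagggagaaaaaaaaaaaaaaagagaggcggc
Each of the 2 holds 1 match, on the opposite strand (CGTCA). Over the 250 bases upstream of all 32851 RefSeq start sites, 17.8% held TGACG, and of the 10 genes Chat, Slc18a3 and Chrnb2 did. The homeodomain core TAAT was present upstream of Slc18a3, Slc10a4 and Chrm2, against 54.9% of all windows. The Sp1 box GGGCGG was present upstream of 7 of the 10 genes, against 32.7% of all windows. Matches were counted at every position, overlapping ones included, and are letters in a window, not shown sites. The printed stretches differ in composition, with 54.7% G and C in that of Chat and 67.5% in that of Slc18a3.

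Levels were first compared between genes as CPM per kilobase of annotated exon over all 10 libraries. The vesicle protein Slc10a4 had the highest level, at 387 ± 66.5 CPM per kb (SD, n = 10), followed by the choline transporter Slc5a7 at 297 ± 67.7 and Slc18a3 at 229 ± 53.5 CPM per kb. These 3 transporters lay above 98.1% or more of the 11630 genes tested, and the library ranges of neighbours in this order overlapped. The M2 receptor gene Chrm2 came next at 75.2 ± 21.7 CPM per kb, below Slc18a3 in all 10 libraries and with no overlap of their ranges. Ache, acetylcholinesterase, was at 38.7 ± 17.8 and Chat at 21.9 ± 4.46 CPM per kb, with overlapping ranges. Chat, the defining enzyme of the transmitter, therefore stood sixth among the 10 per length of exon. Slc18a3 exceeded its host gene Chat by 7.40 to 14.3 times per kb in single libraries. The remaining 4 genes lay below Chat without overlap: Prima1 at 4.43 ± 2.23, Chrnb2 at 2.51 ± 0.826, Chrna4 at 1.38 ± 1.84 and Chrna7 at 0.761 ± 1.85 CPM per kb, each overlapping its neighbour. The order of the last 2 differed by genotype: Chrna4 averaged 2.36 and Chrna7 0.142 CPM per kb in HSA-NRTN pools, and 0.397 and 1.38 in wild-type pools. The lengths used are the union of all annotated exons, so a gene with rarely used exons is understated.

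**Figure D1:**
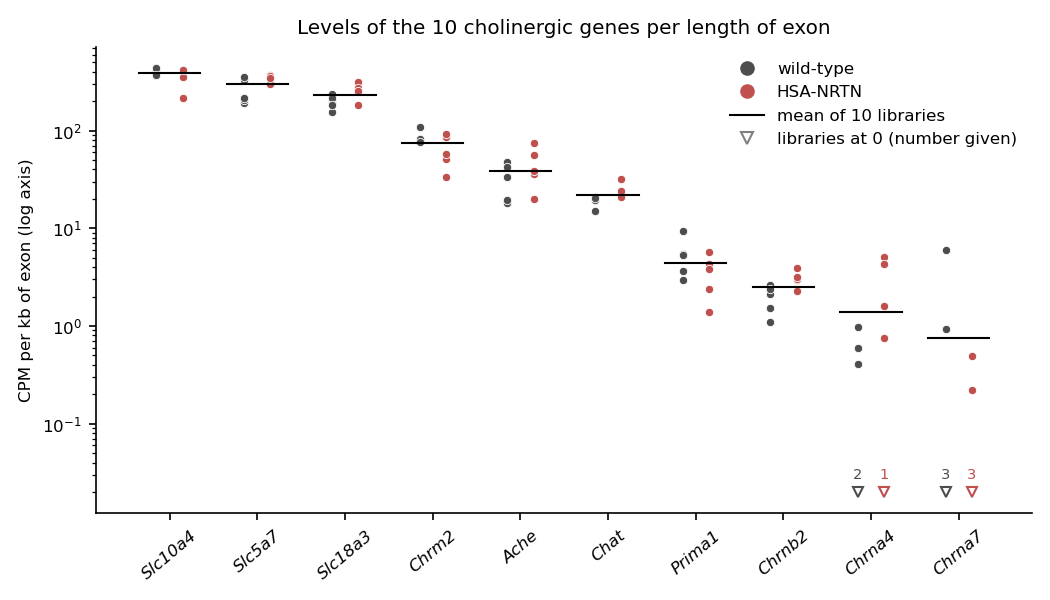
CPM per kilobase of exon (log axis) for the 10 genes, ordered by their mean over 10 libraries (black line), with 1 point per library in gray for wild-type and red for HSA-NRTN. Open triangles give the number of libraries at 0, which occur for Chrna4 and Chrna7, and the 3 transporters at the left lie at 154 CPM per kb or more in every library.

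Setting the 2 genotypes against each other asks whether neurturin made by muscle is accompanied by a change in the transmitter genes of the neurons that innervate it. None of the 10 genes passed an adjusted p of 0.05. Log2 fold changes were above 0 for 6 and below 0 for 3 of the 9 tested. Their median was 0.38, against -0.01 over all 11630 genes. In edgeR's quasi-likelihood test the adjusted p was 0.999 for each of the 9, and 0.00860% of all genes were called. No member had an unadjusted p under 0.05, a rule that 4.83% of all genes met. Because whole pools were sequenced, fewer cells of a type and less RNA per cell cannot be told apart.

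**Figure D2:**
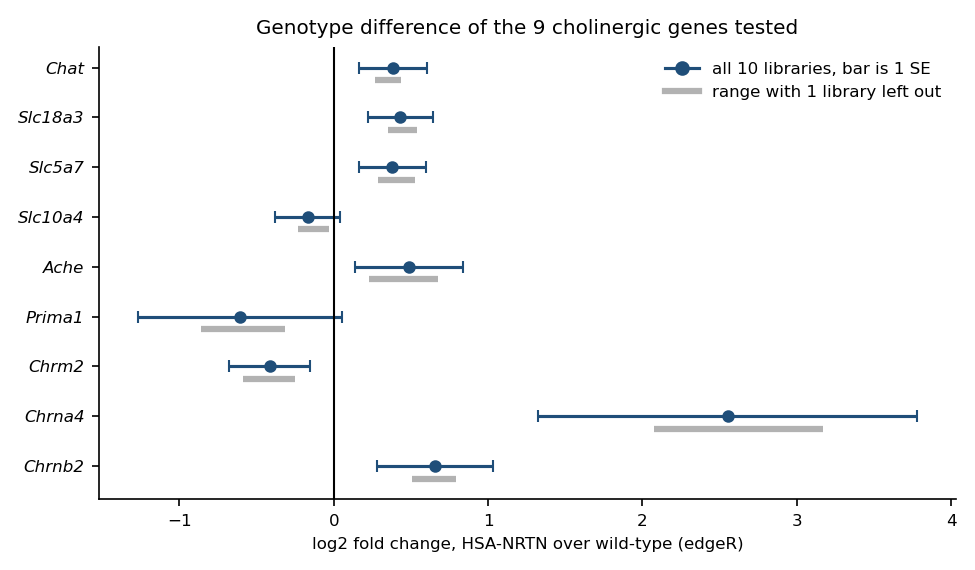
Log2 fold change of the 9 genes tested, HSA-NRTN over wild-type, with bars of 1 SE from edgeR and gray bands for the range when 1 library is left out. Chat, Slc18a3, Slc5a7, Ache, Chrna4 and Chrnb2 lie right of 0 and Slc10a4, Prima1 and Chrm2 left of it, and none passed the adjusted threshold.

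Chat was at 112, 108, 98.5, 114 and 151 CPM in HSA-NRTN replicates 1 to 5 and at 91.1, 90.9, 98.1, 70.7 and 96.6 CPM in wild-type replicates 1 to 5. The groups did not overlap, which was true of 1.25% of all genes tested with 0.645% higher and 0.602% lower in HSA-NRTN. The distance between the nearest libraries, HSA-NRTN replicate 3 and wild-type replicate 3, was 0.494% of the wild-type value, well inside the spread between replicates. The log2 fold change was 0.38 (SE 0.22) with an unadjusted p of 0.104. It was 0.51 in females alone and 0.22 in males alone.

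Slc18a3 was at 705, 765, 441, 657 and 613 CPM in HSA-NRTN and at 459, 565, 372, 517 and 443 CPM in wild-type pools, in order of replicate. HSA-NRTN replicate 3 lay within the wild-type range and the other 4 lay above it. Its log2 fold change of 0.43 (SE 0.21) had an unadjusted p of 0.0546.

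Slc5a7, the high-affinity choline transporter of cholinergic terminals, lies on the minus strand of chromosome 17 from 54273590 to 54299034. It was at 2072, 1744, 1703, 2023 and 1943 CPM in HSA-NRTN and at 1848, 1987, 1081, 1153 and 1222 CPM in wild-type pools. The wild-type libraries fell into 2 high and 3 low values, the HSA-NRTN libraries all lay at 1703 CPM or more, and the groups overlapped. The log2 fold change was 0.38 (SE 0.22, unadjusted p = 0.0989), with 0.50 in females alone and 0.24 in males alone.

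Slc10a4, a vesicle protein of cholinergic and monoaminergic neurons, lies on chromosome 5 from 73006883 to 73012955 on the plus strand. It was at 871, 456, 882, 743 and 886 CPM in HSA-NRTN and at 801, 908, 917, 914 and 779 CPM in wild-type pools. The lowest value belonged to HSA-NRTN replicate 2, and the other 4 HSA-NRTN libraries reached from 743 to 886 CPM. The log2 fold change was -0.17 (SE 0.21), and -0.03 without HSA-NRTN replicate 2.

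The 4 presynaptic genes were also compared with each other inside each library, as log2 ratios of counts tested over the 10 libraries by an exact two-sided permutation test, for all 6 pairs. The ratio of Chat to Slc18a3 differed by -0.05 between the groups, HSA-NRTN minus wild-type (exact p = 0.849), and that of Slc18a3 to Slc5a7 by -0.00048 (exact p = 1.0). The SDs of these ratios within a group were 0.27 to 0.37. Against Slc10a4, the ratio was higher in HSA-NRTN pools by 0.59 for Chat (exact p = 0.0238), by 0.63 for Slc18a3 (exact p = 0.0635) and by 0.63 for Slc5a7 (exact p = 0.0476). After Benjamini-Hochberg adjustment over the 6 pairs these 3 exact p-values were each 0.127 and did not pass. The smallest exact p that 5 against 5 libraries allow is 0.00794. Without HSA-NRTN replicate 2, whose Slc10a4 level was low, the 3 differences were 0.43, 0.38 and 0.48, and their adjusted exact p-values were each 0.254.

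**Figure D3:**
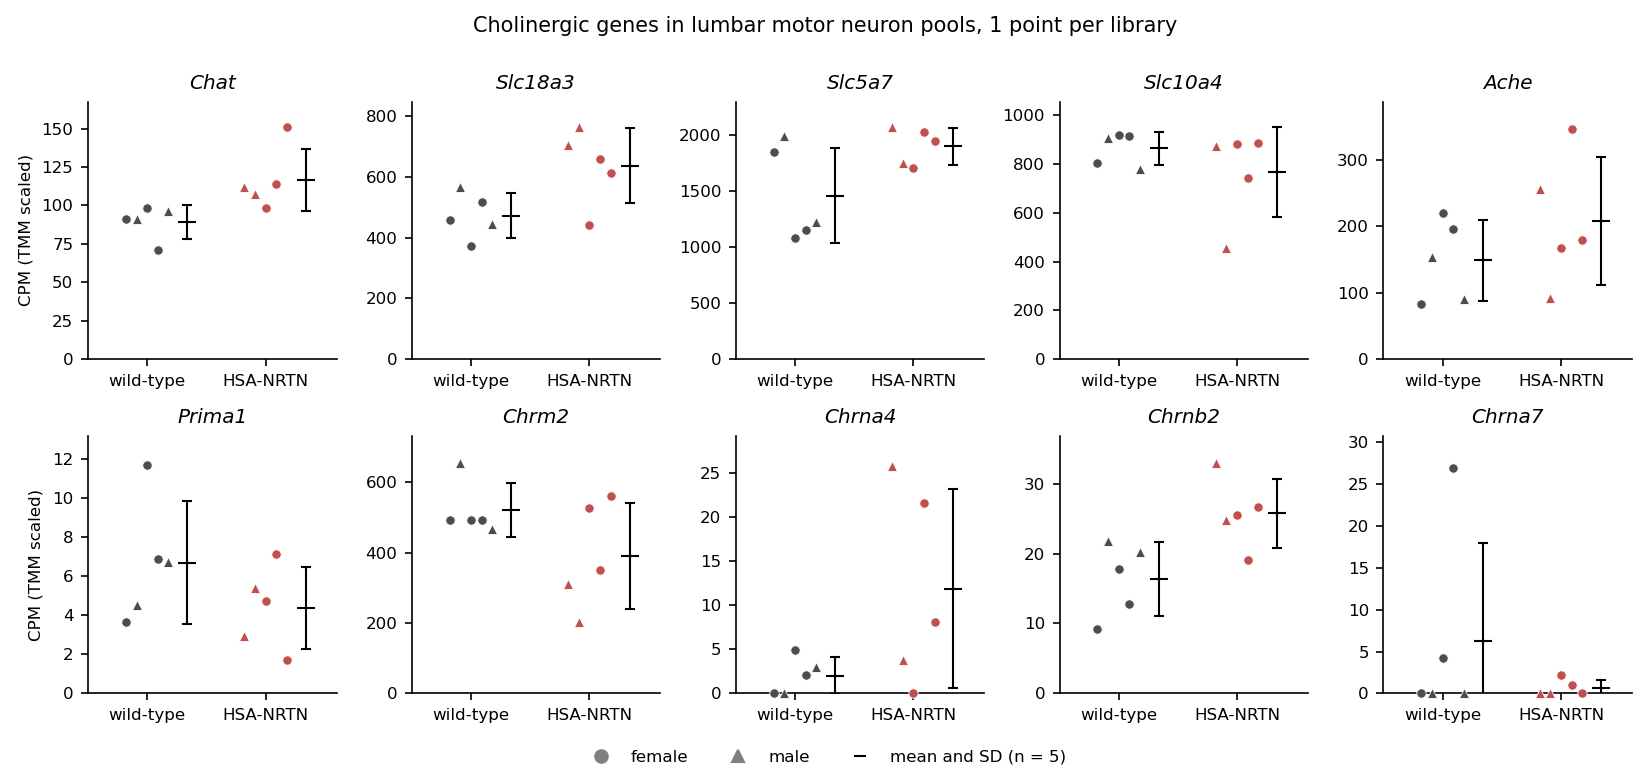
TMM-scaled CPM of the 10 genes in each library, wild-type in gray and HSA-NRTN in red, circles for females and triangles for males, with the mean and SD of 5 libraries beside the points (lower bars end at 0). The 2 groups of Chat touch without overlap, Slc10a4 has 1 low HSA-NRTN library, and 1 wild-type library carries most of Chrna7.

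Breakdown of acetylcholine is represented by Ache and by Prima1, the proline-rich membrane anchor that holds acetylcholinesterase tetramers at neuronal surfaces. Ache, on chromosome 5 from 137287519 to 137294466 on the plus strand, was at 257, 92.4, 168, 346 and 180 CPM in HSA-NRTN and at 83.8, 155, 220, 196 and 91.0 CPM in wild-type pools. The libraries of both groups spread widely and overlapped, and the log2 fold change was 0.49 (SE 0.35). It was 0.23 without HSA-NRTN replicate 4, the highest library, 0.67 without HSA-NRTN replicate 2 and 0.67 without wild-type replicate 3. It was 0.12 in a fit with genes detected per library as a term and 0.80 in one with the run of animal numbers (unadjusted p = 0.0390). Prima1, on chromosome 12 from 103196908 to 103242150 on the minus strand, had 103 counts over HSA-NRTN and 156 counts over wild-type libraries. At 1.73 to 7.13 CPM against 3.67 to 11.7 CPM the groups overlapped, and the log2 fold change of -0.61 (SE 0.66) was -0.32 without wild-type replicate 3. The other cholinesterase genes were near the limit of detection. Bche, butyrylcholinesterase, had 24 counts over HSA-NRTN and 180 over wild-type pools, of which wild-type replicate 1 held 169 at 38.8 CPM, and Colq, the collagen tail of the enzyme at muscle, reached at most 4.76 CPM.

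Among the receptors, Chrm2 was by far the most abundant and the single muscarinic gene of the 5 with more than a few counts. Chrm1, Chrm4 and Chrm5 had 0 counts in all libraries, which allows up to 0.0665 CPM at 3 counts over all libraries, and Chrm3 had 5 counts in 1 library. Chrm2, on chromosome 6 from 36388084 to 36528414 on the plus strand, was at 312, 203, 526, 350 and 560 CPM in HSA-NRTN and at 494, 655, 494, 493 and 466 CPM in wild-type pools. HSA-NRTN replicates 1, 2 and 4 were under the lowest wild-type value, and 4 of the 5 wild-type libraries lay within 466 to 494 CPM. The log2 fold change was -0.41 (SE 0.26, unadjusted p = 0.133), and -0.25 without HSA-NRTN replicate 2. Of its exon bases, 142 overlap a long noncoding RNA on the opposite strand, and the kit does not mark strand.

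Chrm2 was also set side by side in the sexes. Male HSA-NRTN pools averaged 257 CPM against 561 CPM in male wild-type pools (n = 2 each), with a log2 fold change of -1.13 (SE 0.40) and an unadjusted p of 0.0184 in edgeR fitted to males alone, which 5.62% of genes met. Female pools averaged 479 against 494 CPM (n = 3 each), with a log2 fold change of -0.02 (SE 0.25). The genotype by sex interaction was -1.08 (SE 0.44) with an unadjusted p of 0.0293, a level that 5.14% of genes reached. Its adjusted p of 0.922 did not pass. Both male HSA-NRTN mice belong to the lower run of animal numbers and both male wild-type mice to the higher run, so in males the genotype and the run cannot be told apart. HSA-NRTN replicate 2 is 1 of the 2 male HSA-NRTN libraries. Without it that group is 1 library, at 312 CPM, and the interaction was -0.80 (SE 0.48, unadjusted p = 0.122), with the lone library assumed to vary like the others. Without wild-type replicate 2, the highest library, it was -0.82 (unadjusted p = 0.125). No other member had an unadjusted interaction p under 0.05, and for sex itself the members' unadjusted p-values in edgeR ran from 0.202 to 0.969, where 11.2% of all genes were under 0.05.

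The nicotinic genes were sparse. Of 16 subunit genes, 11 had a count in any library and 2, Chrna4 and Chrnb2, passed the filter on low counts. Chrnb2, on chromosome 3 from 89746195 to 89764632 on the minus strand, encodes the β2 subunit and was at 32.9, 24.9, 25.5, 19.1 and 26.6 CPM in HSA-NRTN and at 9.18, 21.8, 17.8, 12.7 and 20.2 CPM in wild-type pools. HSA-NRTN replicates 1, 2, 3 and 5 exceeded the highest wild-type value and replicate 4 fell inside the range, with a log2 fold change of 0.66 (SE 0.38, unadjusted p = 0.102). It shares 1365 of 8380 exon bases with Adar, an RNA-editing enzyme gene on the opposite strand, so reads of both in that stretch cannot be told apart. Whether such reads were counted or left out as ambiguous is not given.

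Chrna4, on chromosome 2 from 181018380 to 181043546 on the minus strand, encodes the α4 partner subunit. It was at 25.8, 3.78, 0, 21.7 and 8.14 CPM in HSA-NRTN and at 0, 0, 4.93, 2.07 and 2.97 CPM in wild-type pools. The 279 HSA-NRTN counts came mostly from replicates 1 and 4, and the wild-type libraries held 48. The log2 fold change of 2.55 (SE 1.23, unadjusted p = 0.0545) ran from 2.07 to 3.17 with 1 library left out, and the groups overlapped, with HSA-NRTN replicates 2 and 3 inside the wild-type range.

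Chrna7, on chromosome 7 from 63098692 to 63212569 on the minus strand, encodes the α7 subunit and did not pass the filter. It had 0 counts in 6 of 10 libraries. Wild-type replicate 4 held 156 of its 193 counts, or 80.8%, at 26.8 CPM. Without that library 18 wild-type and 19 HSA-NRTN counts remained. The same library had the highest sum of fibroblast markers, at 352 CPM. Wild-type replicate 2 had the next highest sum, at 296 CPM, and Chrna7 was at 0 there. The part of these markers was not tested.

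None of the 13 other nicotinic subunit genes was tested. The 8 other neuronal subunits summed to at most 24.6 CPM in any HSA-NRTN library and 0.566 CPM in any wild-type library. That maximum belonged to HSA-NRTN replicate 1, which held 44 of 54 HSA-NRTN counts of Chrna3, 27 of 29 of Chrnb4 and all 12 of Chrna5, 3 subunit genes that lie side by side in 1 cluster. The wild-type libraries together had 3, 0 and 0 counts of them. Of the 5 muscle subunit genes, Chrnd, Chrng and Chrne had 0 counts, while Chrna1 had 45 counts over HSA-NRTN and 12 over wild-type pools and Chrnb1 had 28 and 8. Chrna1 and Chrnb1 stayed at or below 2.67 CPM.

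Proteins that help nicotinic receptors mature or tune them formed a list of 9, of which 7 were tested. Their log2 fold changes were above 0 for 3 and below 0 for 4 (median -0.06), and 2 higher and 1 lower genes had an unadjusted p under 0.05, rules that 2.41% and 2.42% of all genes met. None was called by edgeR. Ly6e, a GPI-anchored member of the Ly6 family, was at 505, 210, 78.0, 401 and 87.0 CPM in HSA-NRTN and at 23.4, 79.0, 37.5, 61.4 and 71.2 CPM in wild-type pools. HSA-NRTN replicates 1, 2 and 4 lay far above the wild-type range, replicate 5 just above it and replicate 3 just inside it. Its log2 fold change, 2.23 (SE 0.50), was not called by edgeR (adjusted p = 0.239), and was 1.84 without replicate 1. DESeq2, which called 0.800% of the genes it adjusted (adjusted p = 0.00556 for Ly6e), and edgeR without the filter on low counts (0.000525) called it, and limma voom did not (0.542). The authors' deposited table gives an adjusted p of 0.000202 for it. Ly6e is not restricted to neurons, and the 3 endothelial markers summed to 0.998 to 9.73 CPM in HSA-NRTN and 0 to 3.96 CPM in wild-type pools. Their part in the difference was not tested.

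Lypd1, also called Lynx2, binds nicotinic receptors in neurons. It was at 7.71, 10.8, 4.21, 4.99 and 19.97 CPM in HSA-NRTN and at 0, 1.42, 0, 2.41 and 0 CPM in wild-type pools. Only 2 wild-type libraries had counts of Lypd1, so it passed the filter on low counts through its HSA-NRTN libraries, where it is high. Its separation and its fold change are not independent of that filter. The groups did not overlap, which was true of 1 of the 7 genes tested on this list. Of all genes tested, 1.25% did not overlap, 0.645% of them all being higher in HSA-NRTN. The 185 HSA-NRTN and 19 wild-type counts gave a log2 fold change of 3.57 (SE 1.13, unadjusted p = 0.00631), which did not pass in edgeR (adjusted p = 0.680) or DESeq2 (adjusted p = 0.0612). Lypd6b, which modulates nicotinic currents, went the other way, at 67.3 ± 24.3 against 106 ± 33.7 CPM (SD, n = 5 each) with overlapping groups and a log2 fold change of -0.66 (SE 0.31, unadjusted p = 0.0481). The neighbouring paralog Lypd6 had a log2 fold change of -0.53 (SE 0.32). Lynx1, the founding brake on nicotinic receptors, was at 159 ± 54.7 against 166 ± 16.5 CPM (SD, n = 5 each), with a log2 fold change of -0.06 (SE 0.24). The chaperone genes Ric3 and Tmem35a, known as NACHO, had log2 fold changes of 0.07 (SE 0.36) and -0.33 (SE 0.30).

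**Figure D4:**
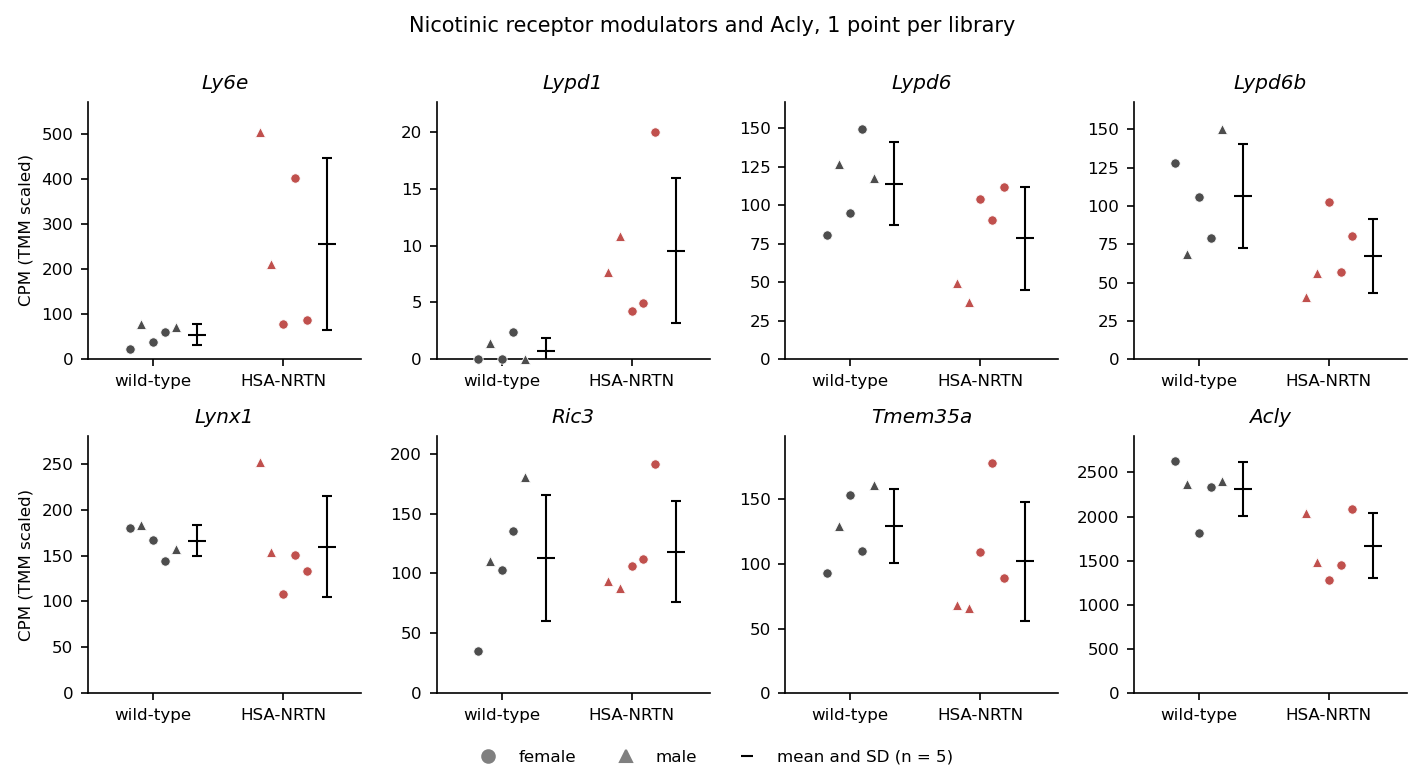
TMM-scaled CPM per library of 7 nicotinic receptor modulators and of Acly, with groups, sexes, mean and SD (n = 5, lower bars end at 0) drawn as for the 10 genes. Ly6e reaches 505 CPM in HSA-NRTN and 79.0 CPM in wild-type pools. Lypd1 does not overlap between the groups, which was true of 1.25% of all genes tested, but it passed the filter on low counts through its HSA-NRTN libraries.

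A further 12 genes act in choline transport and metabolism or in the supply of acetyl groups. Of these 9 were tested, with 5 positive and 4 negative log2 fold changes (median 0.08). A single one had an unadjusted p under 0.05, a lower one, where 2.42% of all genes were lower at that p. This was Acly, ATP citrate lyase, which makes cytosolic acetyl-CoA, at 2035, 1492, 1279, 1451 and 2087 CPM in HSA-NRTN and at 2630, 2370, 1814, 2338 and 2405 CPM in wild-type pools. HSA-NRTN replicates 2, 3 and 4 lay below all wild-type libraries and the groups overlapped, with a log2 fold change of -0.47 (SE 0.20, adjusted p = 0.967 in edgeR). The signalling partners of M2 receptors, Gi/o proteins, GIRK potassium channels and regulators, had 7 positive and 2 negative of 9 tested (median 0.22). None had an unadjusted p under 0.05. Rgs4, which speeds the end of Gi/o signals, had the highest level per kb of these and was at 918 ± 296 against 726 ± 186 CPM (SD, n = 5 each). The GIRK subunit gene Kcnj3 had a log2 fold change of -0.51 (SE 0.26, unadjusted p = 0.0674). Kcnj5 had 0 counts and Kcnj6 had 4 in each group. Of 6 genes of C-bouton synapses 5 were tested, 2 positive and 3 negative (median -0.26), and none had an unadjusted p under 0.05.

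Over the 10 libraries, the genes most like Chat in log2(CPM + 1) included Chchd10 (Pearson r = 0.878, Spearman rho = 0.952), Tmem39a (0.875 and 0.745), Hip1 (0.857 and 0.733) and Adcyap1r1 (0.856 and 0.697). These 4 are among the 5 highest of 11630 and are a description of these libraries, which share the difference between the genotypes. The neighbour Slc18a3 had an r of 0.43 with Chat, Slc5a7 0.54 and Slc10a4 -0.16, and none of the other members was among those 5.

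In the authors' deposited table the adjusted p of the 10 genes ran from 0.523 for Slc18a3 to 0.963 for Slc10a4. The authors' deposited table has unadjusted p-values under 0.05 for Slc18a3 (0.0350), Chrna4 (0.0404) and Chrnb2 (0.0426). The share of all its genes that met this rule was not counted here. In the same table the log2 fold change of Chrna4 is 0.72 (SE 0.38). Fold change over SE does not give its Wald score of 2.05, so its fold changes and those fitted here may be of different kinds. DESeq2 run here gave 2.57 for Chrna4 (adjusted p = 0.554), and it too had unadjusted p-values under 0.05 for Slc18a3, Chrna4 and Chrnb2, a rule that 5.21% of genes met there.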

How the data were processed

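Lumbar motor neuron pools of 10 mice were sequenced as Smart-seq2 libraries fragmented with Tn5, per the labels' protocols, a method without strand or molecular identifiers. Reads were aligned with STAR 2.5.0a and counted with HTSeq against GRCm38.p6 (per the submitters' processing notes). No source used here gives the annotation release. Each deposited file lists raw read counts of 51912 genes. ERCC spike-ins and tally entries stayed out (0.737% to 2.12% of reads per library were ambiguous). The authors deposited a normalized signal, counts divided by 1 size factor per library, used here for symbols and for 1 check. The authors' deposited comparison table holds log2 fold changes, a Wald score, and p-values from DESeq2.

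Counts were tested in R 4.3.3 with edgeR 4.0.16 (filterByExpr, TMM, quasi-likelihood F test, Benjamini-Hochberg over 11630 genes), for genotype without covariates, for sex given genotype and for their interaction. SEs come from the F statistic. DESeq2 1.42.0 and limma 3.58.1 were alternatives, and the scripts were tested on simulated data. Replicate numbers follow record order and pair no animals. Levels are CPM with TMM scaling, and lengths are GENCODE M21 exons. The members and lists were chosen with earlier results of these data known. By a fixed rule, all 10 members, list genes with an unadjusted p under 0.05 (or, with none, the one of highest level per kb) and the 5 genes most like Chat were to be named, of which some are not reported here. Bche, Colq, Chrna3, Chrnb4, Chrna5, Chrna1, Chrnb1, Chrm3, Lypd6, Lynx1, Ric3, Tmem35a, Pcyt1a, Pcyt1b, Kcnj3, Kcnj5, Kcnj6 and markers were named after their values were seen. PCR reads are not independent molecules, so floors cover counting error only. Each library is 1 mouse.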

Additional observations from a re-analysis of the deposited data

Results flagged for a closer look

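Of 28 groups of 5 libraries checked (14 genes in 2 genotypes), 3 had 1 library far from the other 4, where chance flags about 1 group in 20. Chat in wild-type replicate 4 had 70.7 CPM, the other 4 between 90.9 and 98.1 CPM. Chrm2 in wild-type replicate 2 had 655 CPM, the other 4 between 466 and 494 CPM. Without these libraries the log2 fold changes were 0.31 for Chat and -0.30 for Chrm2. Chrna7 in wild-type replicate 4 had 26.8 CPM, the other 4 between 0 and 4.22 CPM.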

How the results depend on the processing

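The 9 tested members kept their direction and stayed uncalled in all 198 pairs of a member and an alternative (22 alternatives each). With 1 library left out the log2 fold change ran from 0.27 to 0.44 for Chat, 0.35 to 0.54 for Slc18a3, 0.28 to 0.53 for Slc5a7, -0.59 to -0.25 for Chrm2 and 0.51 to 0.79 for Chrnb2. The smallest adjusted p of a member under any alternative was 0.339, for Chrna4 without the filter on low counts. The groups of Chat also did not overlap in 2 scalings chosen after seeing the data, CPM without TMM (distance 0.581%) and the authors' deposited values (0.298%). Over all genes, the genotype comparison called 1 gene in edgeR, 126 in DESeq2, 3 in limma voom, 81 without the filter on low counts, 5 with sex as a covariate and 10 with genes detected as one. It called 0 with the run of animal numbers in the fit (706 with an unadjusted p under 0.05), 0 in females alone (566) and 0 in males alone (653). With 1 library left out it called 0 (without wild-type replicate 2) to 13 (without HSA-NRTN replicate 3). The sex comparison called 1 gene in edgeR, 205 in DESeq2, 315 without the filter and 0 in limma voom (1206 with an unadjusted p under 0.05), and 1 to 176 with 1 library left out, the last without wild-type replicate 1. The interaction called 0 genes in edgeR (598 with an unadjusted p under 0.05), 16 in DESeq2 and 35 without the filter. Without the filter more genes are tested, and otherwise the cause was not tested. No paired analysis was possible because the replicate numbers follow record order. Depth limits Chrna4, Chrna7, Prima1 and Lypd1, which rest on few counts.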
